A study of Mus musculus with 12 samples.

Results

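The nuclear-encoded subunits of respiratory complexes II, III, IV and V, with cytochrome c, were followed in mouse skeletal muscle at 2 times of a high-fat diet. The set took every gene with the symbol Sdha, Sdhb, Sdhc, Sdhd, Cyc1 or Cycs, and every gene whose symbol began with Uqcr, with Cox and a digit between 4 and 8, or with Atp5. It held 48 of the 18193 genes measured: 4 of complex II, 9 of complex III, cytochrome c, 17 of complex IV and 17 of complex V. The complex IV subunit Cox7b is missing from the set, as no probe set carried its symbol alone. Where a gene had several probe sets, the one brightest on average stood for it, and 48 further probe sets of 30 of these genes served as a check.

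Complex II passes electrons from succinate to ubiquinone and is also an enzyme of the citric acid cycle. Complex III passes them on to cytochrome c, and complex IV, cytochrome c oxidase, hands them to oxygen. Complex V, the ATP synthase, uses the proton gradient that complexes I, III and IV build to make ATP, and striated muscle carries its own isoforms of several complex IV subunits.

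Total RNA of C57Bl/6 mice was measured as biotin-labelled cRNA on 12 Affymetrix arrays. A first group of 4 arrays came from mice given, from 6 weeks of age, a high-fat diet with 46% of calories from fat for 42 days. A second group of 4 came from mice on that diet for 5 days, and 4 came from mice kept on chow, with 13% of calories from fat, which served as control at both times. If both diet groups began the diet at 6 weeks of age, time on the diet and age at sampling cannot be told apart. The labels name no genetic change. They are silent on sex, on which muscle was taken, on how old the chow mice were when sampled, on batches and on whether each replicate was its own animal, so p-values measure only the spread between these samples. Array medians ran from 7.66 to 7.70 at 42 days, from 7.60 to 7.63 at 5 days and from 7.65 to 7.69 on chow (log2 signal). The mean of 10 skeletal muscle markers lay between 15.19 and 15.22 at 42 days, 15.18 and 15.19 at 5 days and 15.17 and 15.20 on chow. The 3 groups thus carried the muscle markers at one high level. Other markers differed more. The mean of 10 measured white adipocyte markers was 10.14 ± 0.36 at 42 days, 9.95 ± 0.19 at 5 days and 10.61 ± 0.40 on chow (SD, n = 4 arrays); 8 of 10 had lower means at 42 days and 10 of 10 at 5 days than on chow, none past the test at 42 days and 2 past it at 5 days. The 7 liver markers measured averaged 9.70 ± 0.54 at 42 days, 8.54 ± 0.71 at 5 days and 8.31 ± 0.18 on chow, and 6 of 7 rose at 42 days against chow. Tendon markers averaged 9.38 ± 0.17 at 42 days, 8.98 ± 0.23 at 5 days and 8.77 ± 0.10 on chow, and 6 of 8 rose at 42 days. Of 10 endothelial markers, 7 had higher means at 42 days than on chow and 1 rose, and 9 had higher means at 5 days and 2 rose, with median log2 fold changes of 0.08 and 0.21. The part of these other cells in the values below was not tested, beyond a fit with adipocyte markers as a covariate. In bulk muscle, fewer cells of a type and less RNA per cell cannot be told apart.

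The promoters of 3 complex IV isoform genes are shown because isoform pairs of that complex are compared below. They are the ubiquitous forms Cox6a1 and Cox8a, and Cox8b, the striated muscle counterpart of Cox8a. Of the 3, only Cox6a1 passed the test below. Each window runs from 250 bases before to 50 bases after the annotated start of the gene (RefSeq, build GRCm38.p6), on chr5:115348909-115349208 (minus strand) for Cox6a1, chr19:7217567-7217866 (minus strand) for Cox8a and chr7:140900397-140900696 (minus strand) for Cox8b. Capitals mark matches, on either strand, to 7 motifs: NRF-1 (GCGCANGCG), ETS or NRF-2 (CCGGAAG), YY1 (AAGATGG), ERR (AAGGTCA), the CCAAT box, the TATA box (TATAAA) and an E-box (CAGCTG).
Cox6a1: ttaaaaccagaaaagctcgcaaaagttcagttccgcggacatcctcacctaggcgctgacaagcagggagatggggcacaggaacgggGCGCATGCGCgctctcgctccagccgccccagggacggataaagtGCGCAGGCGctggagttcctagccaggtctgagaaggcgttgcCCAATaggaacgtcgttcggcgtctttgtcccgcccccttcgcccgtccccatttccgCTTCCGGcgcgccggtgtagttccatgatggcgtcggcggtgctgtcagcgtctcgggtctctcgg
Cox8a: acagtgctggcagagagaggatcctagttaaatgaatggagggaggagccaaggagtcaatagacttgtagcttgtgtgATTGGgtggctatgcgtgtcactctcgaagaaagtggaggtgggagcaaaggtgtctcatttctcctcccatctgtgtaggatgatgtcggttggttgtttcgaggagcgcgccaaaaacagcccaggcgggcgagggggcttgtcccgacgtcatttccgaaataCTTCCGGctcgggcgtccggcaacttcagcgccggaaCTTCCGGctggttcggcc
Cox8b: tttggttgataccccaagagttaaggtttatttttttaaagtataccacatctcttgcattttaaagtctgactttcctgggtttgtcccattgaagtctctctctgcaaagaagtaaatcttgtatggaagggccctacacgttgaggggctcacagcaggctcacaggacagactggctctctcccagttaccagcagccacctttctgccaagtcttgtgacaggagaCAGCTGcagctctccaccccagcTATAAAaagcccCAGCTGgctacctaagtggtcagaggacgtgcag
In these letters Cox6a1 held 3 NRF-1 matches (a pair of them overlapping on opposite strands), 1 ETS match and 1 CCAAT box, and Cox8a held 2 ETS matches and 1 CCAAT box. Cox8b held neither NRF-1 nor ETS letters in this window, but 1 TATA box and 2 E-boxes. The table gave 39 windows for 36 of the 48 members, Cox6a2 not among them. NRF-1 letters stood in 33.3% of the members' windows and in 6.25% of all 32851 windows, and ETS letters in 33.3% and 8.86%. CCAAT stood in 53.8% of the members' windows and 37.4% of all, the ERR half-site in 12.8% and 4.72%, and YY1 letters in 10.3% and 6.34%. The TATA box stood in 10.3% of the members' windows and 13.6% of all, and the E-box in 5.13% and 16.3%. A match is a description of the sequence and not a site.

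Few of the 48 subunits passed the test in any comparison, as did few of all genes. Against chow at 42 days, Cox6b2 rose (2.08%), Cox6a1 and Cox7c fell (4.17%), and 45 subunits did not pass the test (limma, adjusted p under 0.05). Of all genes, 2.12% rose and 3.44% fell in that comparison. At 5 days no subunit rose, Cox6a1 and Cox8c fell (4.17%), and 46 did not pass, with 1.60% of all genes rising and 2.20% falling. For 48 genes, the counts against chow lay near the shares over all genes. Between the times, only Cox8c rose at 42 days against 5 days and no subunit fell (2.75% and 5.77% of all genes).

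The same limma fit at an unadjusted p under 0.05 gave 9 subunits (18.75%) higher and 3 (6.25%) lower at 42 days than on chow. Of all genes, 8.43% were higher and 13.4% lower. At 5 days 1 was higher and 3 were lower (10.6% and 14.1% of all genes), and between the times 3 were higher and 2 lower at 42 days (13.7% and 17.2%). Higher means than on chow were found for 32 of 48 subunits at 42 days and 37 of 48 at 5 days, against 8203 and 8547 of 18193 genes, and 680 and 1337 of the brightest 1820. The median log2 fold change of the subunits was 0.027 at 42 days and 0.036 at 5 days, against -0.013 and -0.010 over all genes. The sign of the subunits' median depended on the processing: at 5 days it was -0.0012 after cyclic loess and 0.0944 after median centring, and at 42 days -0.0046 with the slow fibre marker mean as a covariate. Most subunits gave bright probe sets, and the medians of the brightest 10% of genes were -0.036 at 42 days and 0.051 at 5 days. For 45 of 48 subunits at 42 days, and 46 of 48 at 5 days, the 95% interval of the fold change lay within 1.25-fold of chow either way. The same held for 14811 of all 18193 genes at 42 days and 14469 at 5 days. Among the brightest 1820 genes it held for 1478 and 1619.

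**Figure D1:**
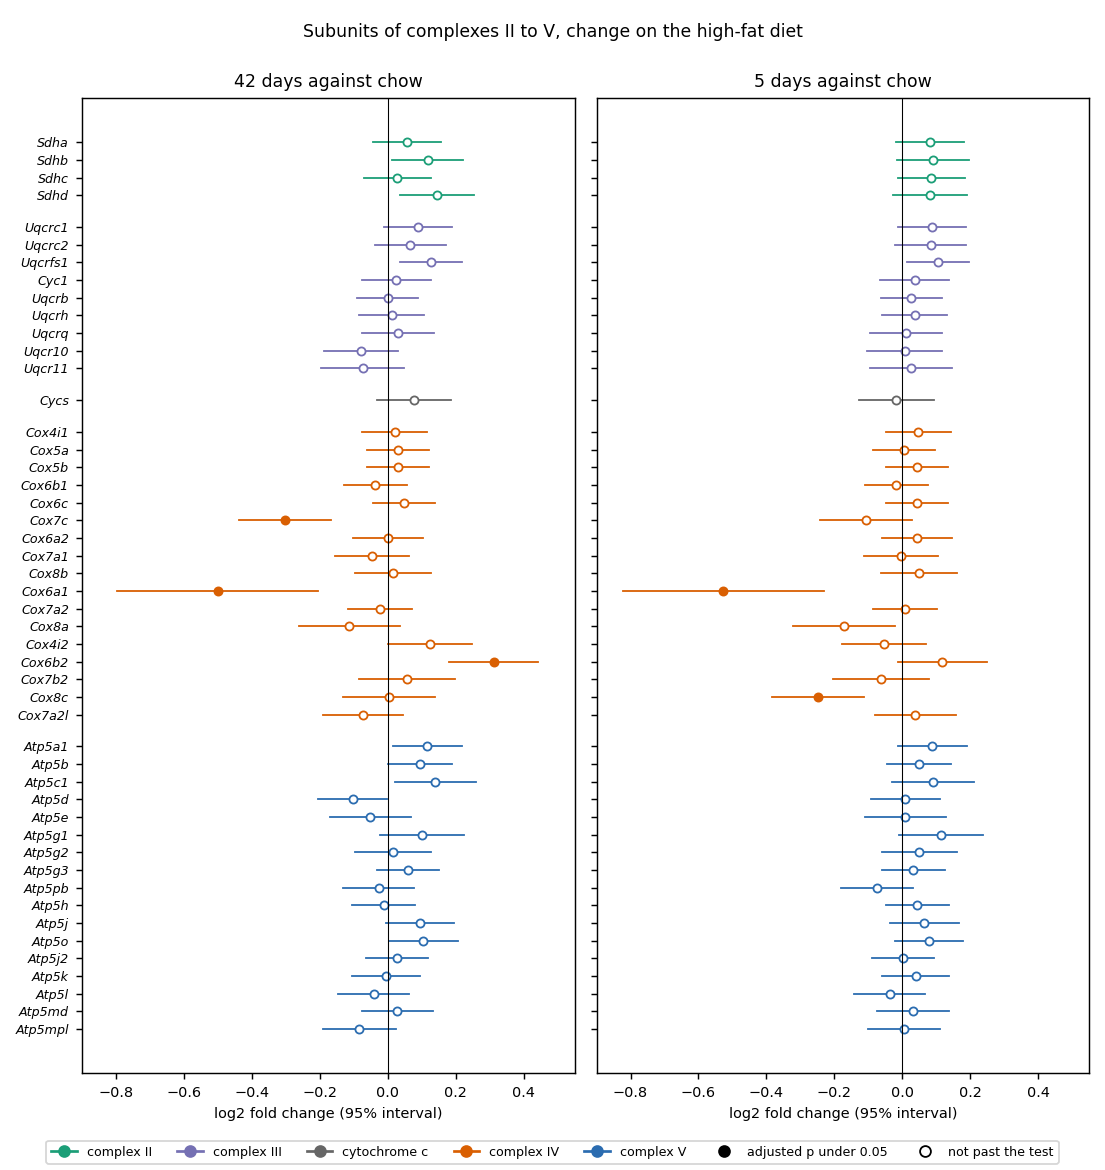
Log2 fold change of each of the 48 subunits at 42 days against chow (left) and at 5 days against chow (right), with 95% intervals from limma; colours give the complex and filled points an adjusted p under 0.05. Most intervals cross 0, and Cox6a1 lies farthest from it at both times, at -0.50 and -0.53.

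Whole separation of the groups was more common than calls. At 42 days, all 4 arrays lay above all 4 chow arrays for 12 subunits (25%) and below them for 2 (4.17%). Of all genes, 5.19% and 8.66% were so placed. At 5 days the counts were 6 above and 1 below (5.29% and 6.47% of all genes). Between the times, 3 subunits lay wholly above at 42 days and 5 wholly below (7.17% and 13.3%). Of the 12 at 42 days, 2 belonged to complex II, 1 to complex III, 3 to complex IV and 6 to complex V. The subunits were read on the same 12 arrays, so these counts are not independent observations.

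Complex II stood highest as a group, though none of its 4 genes passed the test. Its median log2 fold change was 0.088 at 42 days and 0.083 at 5 days, and all 4 members had positive values at both times. Sdhd, a membrane anchor, had the highest value of the complex at 42 days. Its log2 signals were 13.59, 13.48, 13.56 and 13.59 at 42 days, 13.49, 13.46, 13.52 and 13.50 at 5 days, and 13.46, 13.43, 13.46 and 13.30 on chow. Every array of either diet time lay above every chow array, narrowly so at 5 days, and chow replicate 4 was the lowest of the 12. The log2 fold changes of Sdhd were 0.15 ± 0.051 at 42 days (SE; limma adjusted p = 0.111) and 0.08 ± 0.051 at 5 days (adjusted p = 0.339). Sdhb, the iron-sulfur subunit, had 0.12 ± 0.049 (adjusted p = 0.178) and 0.09 ± 0.049 (adjusted p = 0.270), with all 42-day arrays above chow. Sdha, the flavoprotein that oxidises succinate, had 0.06 at 42 days and 0.08 at 5 days, and Sdhc, the other anchor and the lowest of the complex at 42 days, had 0.03 and 0.08. The 5-day arrays of both Sdha and Sdhc lay above all chow arrays, while their 42-day arrays overlapped chow. A second probe set of Sdhd gave -0.10 at 42 days and -0.09 at 5 days, neither past the test.

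**Figure D2:**
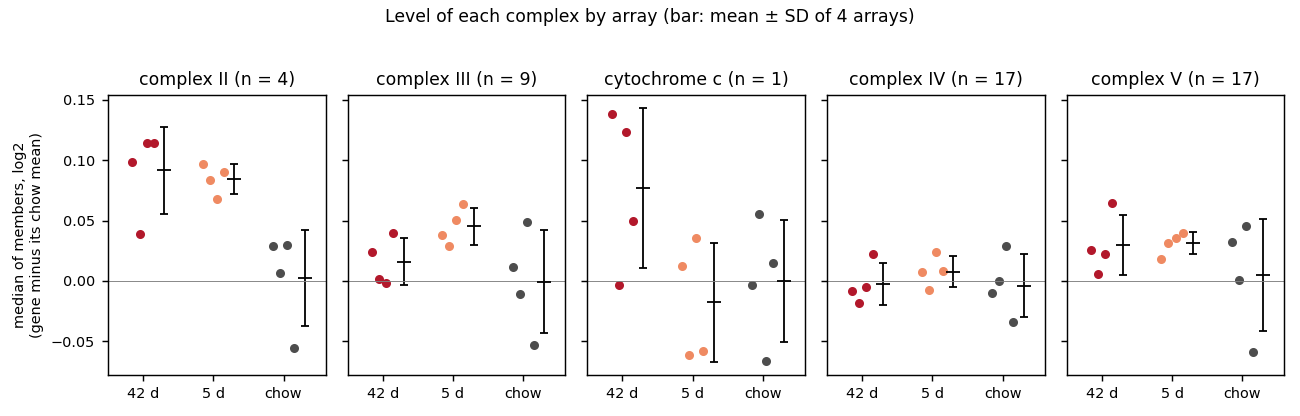
Median over the members of each complex of the log2 signal minus the gene's chow mean, for each of 12 arrays in the order 42 days, 5 days and chow; bars give mean ± SD of 4 arrays. The 8 diet arrays of complex II lie between 0.04 and 0.11 and its chow arrays between -0.06 and 0.03, while in complexes III, IV and V the chow arrays span the others in whole or large part.

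In complex III no gene passed the test at either time. The core proteins Uqcrc1 and Uqcrc2, the Rieske iron-sulfur protein Uqcrfs1 and cytochrome c1 (Cyc1) had values between 0.026 and 0.127 at 42 days, with medians of 0.078 at 42 days and 0.085 at 5 days. Of the 5 small subunits 3 had higher and 2 lower means at 42 days than on chow, between -0.08 and 0.03, and all 5 had higher means at 5 days, with medians of 0.0005 and 0.025. The difference between these groups of subunits was not tested. Uqcrfs1, the highest of the complex at 42 days, gave 13.97, 13.96, 13.97 and 13.99 at 42 days, 13.92, 13.98, 13.95 and 13.95 at 5 days, and 13.88, 13.85, 13.83 and 13.82 on chow. Both diet groups lay wholly above chow, and the spread within groups was narrow. The log2 fold changes of Uqcrfs1 were 0.13 ± 0.043 at 42 days (limma adjusted p = 0.0993) and 0.10 ± 0.043 at 5 days (adjusted p = 0.153). Uqcr10, a small subunit and the lowest of the complex at 42 days, had -0.08 ± 0.052 at 42 days (adjusted p = 0.410) and 0.01 ± 0.052 at 5 days (adjusted p = 0.954). Its 42-day arrays, at 13.37, 13.36, 13.37 and 13.44, lay below all 5-day arrays, which were between 13.47 and 13.48. They overlapped the chow arrays of 13.49, 13.42, 13.58 and 13.36. Cycs, the carrier between complexes III and IV, had 0.08 ± 0.051 at 42 days (adjusted p = 0.417) and -0.02 ± 0.051 at 5 days (adjusted p = 0.856).

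Complex V likewise had no member past the test at either time. Its median was 0.028 at 42 days and 0.039 at 5 days, and 10 and 15 of 17 members had positive values. The F1 head and central stalk had a median of 0.095 at 42 days, with 3 of 5 genes higher and 2 lower than on chow, and 0.049 at 5 days, with all 5 higher. Medians at those times were, for the 3 genes of the c-ring, 0.060 and 0.050, for the peripheral stalk 0.042 and 0.054, and for the 5 small membrane subunits -0.005 and 0.005. Atp5c1, the gamma subunit that turns inside the head, was the highest at 42 days. Its signals were 14.22, 14.24, 14.17 and 14.24 at 42 days, 14.17, 14.26, 14.12 and 14.13 at 5 days, and 14.16, 14.02, 14.16 and 13.97 on chow. The 42-day arrays lay above all chow arrays, and the 5-day arrays overlapped them. Its log2 fold changes were 0.14 ± 0.056 at 42 days (limma adjusted p = 0.159) and 0.09 ± 0.056 at 5 days (adjusted p = 0.333).

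The alpha and beta subunits of the head, Atp5a1 and Atp5b, had 0.12 and 0.10 at 42 days, and their 42-day arrays too lay wholly above chow, as did those of Atp5g3, Atp5j and Atp5o. The delta and epsilon subunits of the central stalk, Atp5d and Atp5e, had values of the other sign, at -0.10 and -0.05. Atp5d, the lowest of the complex at 42 days, gave 13.93, 13.97, 13.88 and 13.93 at 42 days, 14.02, 14.03, 14.08 and 14.03 at 5 days, and 13.99, 14.04, 14.11 and 13.99 on chow. Its 42-day arrays lay below every other array. The log2 fold change of Atp5d was -0.10 ± 0.047 at 42 days against chow (adjusted p = 0.218) and 0.01 ± 0.047 at 5 days (adjusted p = 0.929). A second probe set of Atp5d gave 0.002 at 42 days, which differs in size from the chosen one. Atp5g1, Atp5g2 and Atp5g3, which encode the same mature c-ring protein, had 0.10, 0.02 and 0.06 at 42 days and 0.11, 0.05 and 0.03 at 5 days, none past the test.

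The genes' further probe sets were read in a fit of their own. Of 48 such probe sets, 4 rose and 2 fell at 42 days against chow in the fit over all 34945 probe sets, where 5.86% rose and 4.70% fell. At 5 days none rose and 1 fell (1.94% and 1.65% of all), and between the times 1 rose and none fell at 42 days (2.97% and 4.84%). These counts lay near the shares over all probe sets. The 4 that rose read Sdha, Sdhc, Uqcrc2 and Cycs and are named after their values were seen. That of Sdha gave 13.71, 13.69, 13.73 and 13.74 at 42 days, 13.62, 13.73, 13.54 and 13.66 at 5 days, and 13.54, 13.48, 13.41 and 13.47 on chow. The 42-day arrays of this probe set were all above chow, and its log2 fold change was 0.24 ± 0.054 (limma adjusted p = 0.0105), against 0.06 for the chosen probe set of Sdha. Those of Cycs, Uqcrc2 and Sdhc had 0.19 ± 0.050 (adjusted p = 0.0271), 0.18 ± 0.051 (adjusted p = 0.0391) and 0.17 ± 0.050 (adjusted p = 0.0467), against 0.08, 0.07 and 0.03 for the chosen ones. The 2 that fell were a dim probe set of Atp5a1 (-0.53 ± 0.095, adjusted p = 0.0031), whose gene had 0.12 and -0.03 in its brighter probe sets, and 1 of the supercomplex factor Cox7a2l (-0.22 ± 0.062, adjusted p = 0.037). Of the 30 further probe sets with a mean signal over 11, 17 had the sign of the chosen one at 42 days and 19 at 5 days.

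**Figure D3:**
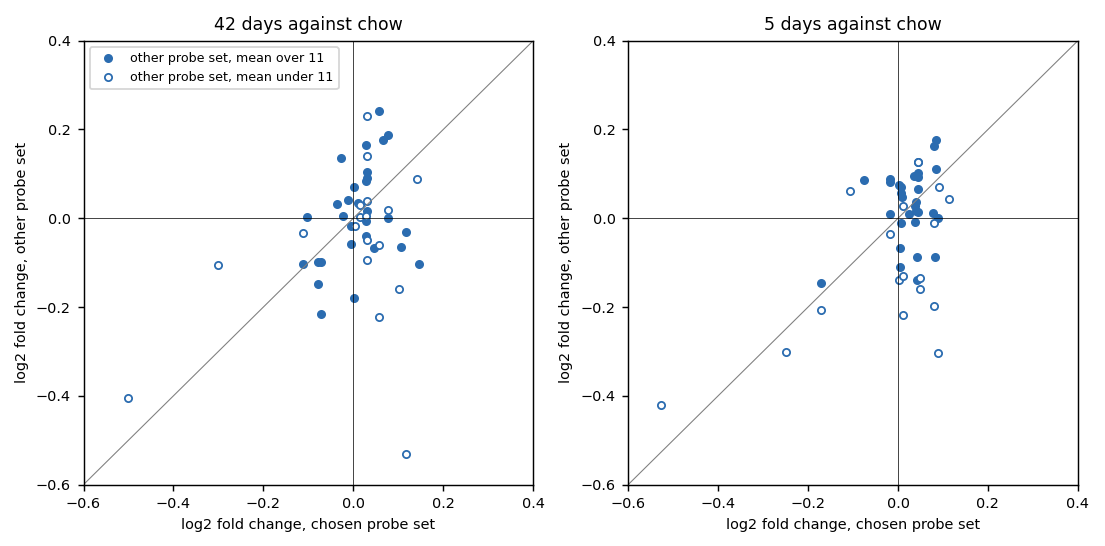
Log2 fold change of each further probe set (vertical) against that of the chosen probe set of the same gene (horizontal) at 42 days and at 5 days against chow; filled points have a mean log2 signal over 11 and the line marks equal values. Cox6a1 lies at the lower left near the line at both times, at -0.40 and -0.42 for its second probe set, while most other points scatter around 0.

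In the main fit, the 4 subunits past the test in any comparison, Cox6a1, Cox6b2, Cox7c and Cox8c, all belonged to complex IV. Under other settings, members of complexes II, III and V passed too. At 42 days, Sdhd, Uqcrfs1 and Atp5a1 rose with a trended and robust prior. Uqcrfs1 also rose then after cyclic loess and without the 40% dimmest genes. With the most variable probe set, Uqcrc2 rose and Atp5a1 fell at 42 days. The median log2 fold change of complex IV was 0.003 at 42 days and 0.005 at 5 days. Among the subunits without a muscle isoform pair, Cox4i1, Cox5a, Cox5b, Cox6b1 and Cox6c had values between -0.04 and 0.05 at both times, none past the test. The array read Cox7c, another small nuclear-encoded subunit of this group, only through dim probe sets, with a mean log2 signal of 6.25 for the brighter one, and whether that signal is the Cox7c transcript was not tested. Its signals were 5.98, 6.01, 6.28 and 6.06 at 42 days, 6.26, 6.29, 6.33 and 6.21 at 5 days, and 6.32, 6.43, 6.40 and 6.37 on chow. Every 42-day array lay below every chow array, and the log2 fold change was -0.30 ± 0.063 (limma adjusted p = 0.0176). The call was lost without chow replicate 3 or 42-day replicate 1, 2 or 4 (adjusted p between 0.0523 and 0.055). It was also lost with the adipocyte marker mean of each array as a covariate (-0.30, adjusted p = 0.089) and with the slow fibre marker mean (-0.29, adjusted p = 0.0648), and the other, still dimmer probe set of Cox7c gave -0.10 (adjusted p = 0.290). At 5 days Cox7c had -0.11 ± 0.063 (adjusted p = 0.305).

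The heart and muscle isoforms did not pass the test at either time. Cox6a2 gave 14.46, 14.46, 14.47 and 14.53 at 42 days, 14.53, 14.58, 14.47 and 14.50 at 5 days, and 14.52, 14.48, 14.52 and 14.39 on chow. The 3 groups overlapped, with log2 fold changes of 0.002 ± 0.049 at 42 days and 0.04 ± 0.049 at 5 days. Cox7a1 had -0.05 ± 0.051 and -0.004 ± 0.051, and Cox8b had 0.02 ± 0.053 and 0.05 ± 0.053 at the same times.

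Cox6a1, the ubiquitous counterpart of Cox6a2, fell at both times, against the same 4 chow arrays, so the falls are not independent observations. It gave 12.16, 12.42, 12.23 and 12.60 at 42 days, 12.23, 12.34, 12.47 and 12.27 at 5 days, and 12.43, 12.75, 12.95 and 13.27 on chow. Chow replicates 2, 3 and 4 lay above all 8 diet arrays, and chow replicate 1 lay among them, so the groups overlapped. The fold changes were 1.41-fold lower at 42 days (log2 -0.50 ± 0.14, limma adjusted p = 0.0487) and 1.44-fold lower at 5 days (-0.53 ± 0.14, adjusted p = 0.0489). A second probe set of Cox6a1 gave -0.40 ± 0.16 (adjusted p = 0.114) and -0.42 ± 0.16 (adjusted p = 0.118). The calls sat at the threshold: of the 12 fits that left out 1 array, only that without chow replicate 1 kept the call, at either time, and adjusted p ran from 0.0101 to 0.145 at 42 days and from 0.0298 to 0.120 at 5 days.

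The chow arrays of Cox6a1 stood in the same order as those of Ucp1, the uncoupling protein of brown adipocytes, at 7.50, 8.72, 9.58 and 9.82 in replicates 1 to 4. The diet arrays had 7.41, 7.73, 7.32 and 8.96 at 42 days and 7.18, 7.88, 7.47 and 7.19 at 5 days, and the highest of them, 42-day replicate 4, was also the highest diet array of Cox6a1. Cidea, another gene of brown adipocytes, had the same chow order, at 8.35, 9.82, 10.23 and 11.05. So did Adipoq, the adiponectin of white adipocytes, at 11.59, 11.67, 11.82 and 12.91, and the mean of the 10 white adipocyte markers, at 10.28, 10.44, 10.51 and 11.20. Within the 5-day group, Adipoq, at 10.58, 11.04, 11.51 and 10.66, and the white marker mean kept the order of Cox6a1. Ucp1 and Cidea did not. Within the 42-day group none of these kept it in full. The mean of 8 brown adipocyte markers ran from 7.17 to 7.69 at 42 days, 7.10 to 7.22 at 5 days and 7.22 to 8.02 on chow. Of those 8, 4 had higher and 4 lower means at 42 days than on chow, none past the test, while at 5 days all 8 had lower means and 1 fell. In a fit that took the adipocyte marker mean of each array into account, Cox6a1 had -0.20 at 42 days (adjusted p = 0.309) and -0.10 at 5 days (adjusted p = 0.604). With the slow fibre marker mean in its place the values were -0.36 (adjusted p = 0.229) and -0.39 (adjusted p = 0.196). Over all settings tried, adjusted p for Cox6a1 ran from 0.0101 to 0.309 at 42 days and from 0.0298 to 0.604 at 5 days. The part of other cells in the fall of Cox6a1 was not tested beyond these fits.

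**Figure D4:**
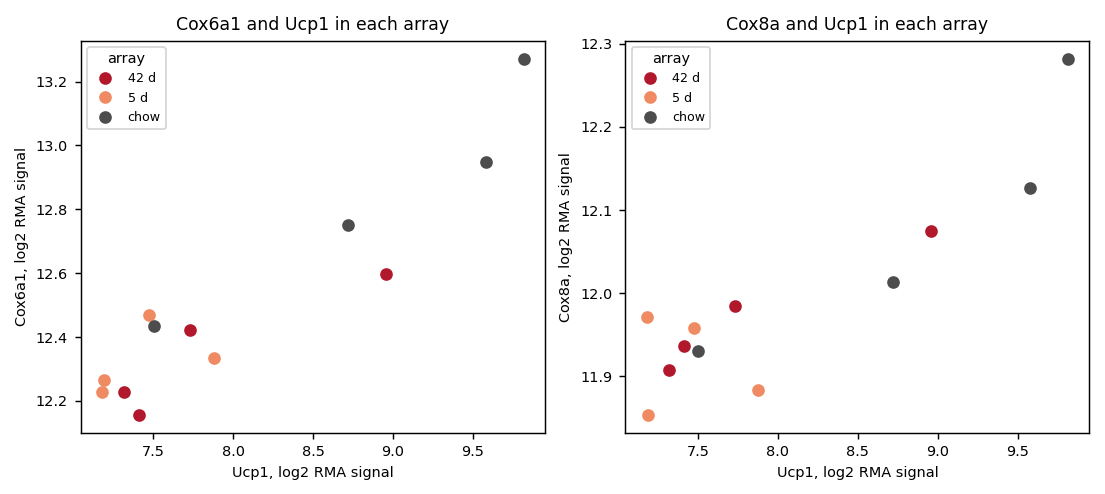
Log2 signal of Cox6a1 (left) and Cox8a (right) against that of Ucp1 in each of the 12 arrays, with 42-day, 5-day and chow arrays in red, orange and grey. Chow replicates 2, 3 and 4 lie at the upper right for Cox6a1, and chow replicate 1 lies among the diet arrays.

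Cox8a, the ubiquitous partner of Cox8b, did not pass the test. It gave 11.94, 11.99, 11.91 and 12.08 at 42 days, 11.97, 11.88, 11.96 and 11.85 at 5 days, and 11.93, 12.01, 12.13 and 12.28 on chow. Its chow arrays stood in the same order as those of Cox6a1, and the groups overlapped. The log2 fold changes were -0.11 ± 0.070 at 42 days (limma adjusted p = 0.378) and -0.17 ± 0.070 at 5 days (adjusted p = 0.148). Cox7a2, the ubiquitous counterpart of Cox7a1, had -0.02 ± 0.044 and 0.01 ± 0.044.

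**Figure D5:**
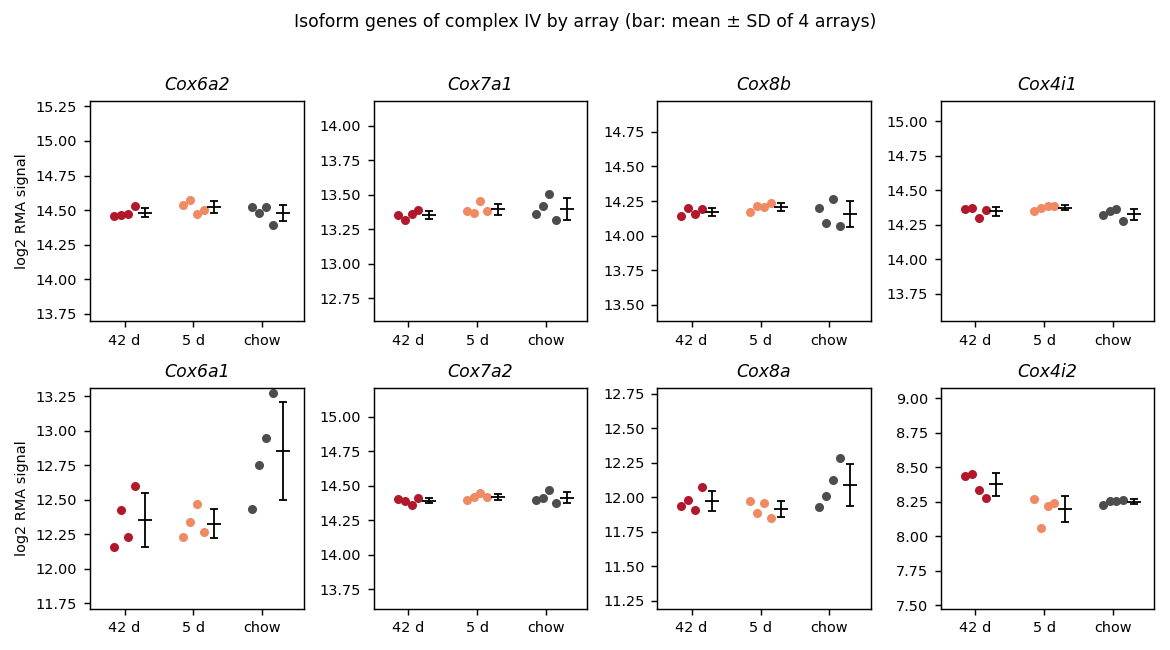
Log2 signal in each array of 4 complex IV isoform pairs, with groups in the order 42 days, 5 days and chow and mean ± SD of 4 arrays beside them; all panels span 1.6 log2 units. The chow arrays of Cox6a1 spread from 12.43 to 13.27, and those of its muscle partner Cox6a2 from 14.39 to 14.52.

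The change of each isoform pair was tested directly as the difference of the log2 signals of both genes in the same array, for 6 pairs and 3 comparisons, or 18 tests. Signals of different probe sets are not comparable as levels, so only the change of the difference is given. With 4 arrays a group the smallest two-sided p of the exact permutation test is 0.0286. The difference of Cox6a2 and Cox6a1 shifted towards the muscle form by 0.50 ± 0.22 at 42 days (SE; exact p = 0.0857, adjusted p = 0.257) and by 0.57 ± 0.21 at 5 days (exact p = 0.0571, adjusted p = 0.257). That of Cox8b and Cox8a shifted by 0.13 ± 0.11 at 42 days (exact p = 0.314, adjusted p = 0.566) and 0.22 ± 0.11 at 5 days (exact p = 0.0857, adjusted p = 0.257). That of Cox7a1 and Cox7a2 shifted by -0.02 ± 0.027 at 42 days (exact p = 0.40) and -0.01 ± 0.025 at 5 days (exact p = 0.686). Cox4i1 and Cox4i2 gave the lowest p between the times, with -0.20 ± 0.063 at 42 days against 5 days (exact p = 0.0571, adjusted p = 0.257). None of the 18 tests passed, and in every one of them the groups overlapped. With a smallest p of 0.0286 and adjustment over 18 tests, a single pair could not have passed alone, whatever its shift. The adjusted tests therefore cannot tell a shift of 1 pair from none.

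Among the isoforms best known from lung or testis, Cox6b2 and Cox8c passed the test. Cox6b2, the testis form of Cox6b1, gave 6.61, 6.78, 6.76 and 6.75 at 42 days, 6.58, 6.50, 6.53 and 6.50 at 5 days, and 6.26, 6.50, 6.40 and 6.49 on chow. All 42-day arrays lay above all others, and the log2 fold change was 0.31 ± 0.061, or 1.24-fold (limma adjusted p = 0.0139). Cox6b2 kept the call in 12 of 12 fits that left out an array and under all 11 other settings that kept the gene. The filter on the dimmest genes removed it. Its only probe set was dim, with a mean log2 signal of 6.55, and whether that signal is the Cox6b2 transcript was not tested. At 5 days Cox6b2 had 0.12 ± 0.061 (adjusted p = 0.25).

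Cox8c, the testis form of subunit 8, fell at 5 days and stood at the chow level at 42 days. It gave 10.64, 10.41, 10.57 and 10.48 at 42 days, 10.40, 10.26, 10.29 and 10.14 at 5 days, and 10.57, 10.48, 10.53 and 10.50 on chow. The 5-day arrays lay below every other array. The mean log2 signal of this testis form was 10.44 in muscle, and whether that signal is the Cox8c transcript was not tested. The log2 fold change was 0.003 ± 0.063 at 42 days (adjusted p = 0.989) and -0.25 ± 0.063 at 5 days (limma adjusted p = 0.0462), and the 42-day level exceeded the 5-day level by 0.25 ± 0.063 (adjusted p = 0.0304). A second probe set gave -0.02 ± 0.079 at 42 days and -0.30 ± 0.079 at 5 days (adjusted p = 0.0497), and 0.28 ± 0.079 between the times (adjusted p = 0.0432). Of the 12 fits that left out 1 array, 2 kept the 5-day call, those without 5-day or 42-day replicate 1. The 5-day call was also lost after median centring, with array weights, with either marker covariate and in a fit of the 8 arrays compared (adjusted p between 0.0601 and 0.0949). The call between the times was kept in 6 of 12 and lost without 5-day replicate 2, 3 or 4 or 42-day replicate 1, 3 or 4. Cox4i2, known from lung, had 0.12 ± 0.058 at 42 days (adjusted p = 0.229) and -0.05 ± 0.058 at 5 days (adjusted p = 0.589), and Cox7b2 had 0.06 and -0.06.

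Beyond the subunits, a list of 38 measured assembly factors of the same complexes was read in the same fit. Against chow 2 rose and none fell at 42 days, beside 2.12% and 3.44% of all genes, and 4 rose and none fell at 5 days, beside 1.60% and 2.20%. Between the times 1 fell and none rose at 42 days, beside 5.77% and 2.75%. The list's median was -0.02 at 42 days and 0.07 at 5 days. Atpaf1, a chaperone of the ATP synthase head, rose by 0.22 ± 0.054 at 42 days (limma adjusted p = 0.0283) and 0.23 ± 0.054 at 5 days (adjusted p = 0.0375). Sdhaf2, which helps to attach the flavin of complex II, rose by 0.27 ± 0.055 at 42 days (adjusted p = 0.015) and had 0.18 ± 0.055 at 5 days (adjusted p = 0.0722). Hccs, which attaches haem to cytochromes c, had 0.10 ± 0.048 at 42 days (adjusted p = 0.216) and rose by 0.23 ± 0.048 at 5 days (adjusted p = 0.0301). Lrpprc, which stabilises mitochondrial mRNAs, and Sdhaf3, an assembly factor of complex II, had 0.07 and 0.13 at 42 days and rose by 0.23 and 0.25 at 5 days (adjusted p = 0.0374 and 0.0422). Bcs1l, which inserts the Rieske protein into complex III, fell by 0.22 at 42 days against 5 days (adjusted p = 0.0421).

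Complex I, the entry point for electrons from NADH, had 36 measured subunits, of which 2 rose at 42 days and 1 at 5 days against chow, and none fell, beside the 2.12% and 1.60% of all genes that rose. The median was 0.001 at 42 days and 0.039 at 5 days. Ndufs1, its largest iron-sulfur subunit, rose by 0.19 ± 0.052 at 42 days (limma adjusted p = 0.049) and 0.24 ± 0.052 at 5 days (adjusted p = 0.0343). Ndufb5, a membrane subunit, rose by 0.19 ± 0.048 at 42 days (adjusted p = 0.0344) and had 0.10 ± 0.048 at 5 days (adjusted p = 0.202).

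The chow arrays spread more widely than those of either diet time. The median of all 48 subunits, each as the difference from its chow mean, ran from -0.0009 to 0.039 at 42 days, from 0.019 to 0.040 at 5 days and from -0.05 to 0.039 on chow. Chow replicate 4 had the lowest value and chow replicate 3 the highest of that group. The mean of 10 slow fibre markers stood, among the chow arrays, lowest in replicate 4, at 11.22, and highest in replicate 3, at 11.83, against 11.76 ± 0.044 at 42 days and 11.75 ± 0.12 at 5 days (SD, n = 4). Of the 10, all had higher means at 42 days than on chow and 9 at 5 days, none past the test. Without chow replicate 4 the median log2 fold change of the subunits was 0.004 at 42 days and 0.016 at 5 days. With the slow fibre marker mean as a covariate it was -0.005 and 0.005. The part of fibre type in these medians was not tested beyond that fit.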

How the data were processed

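Each array's deposited values were log2 signals made with RMA, per the submitters' processing notes, which give no software or version. The log2 scale follows from their range, and no step of the authors' background correction or summary was changed. Probe sets were named from the platform annotation. Of 45098 probe sets, 61 were controls, 34945 had 1 gene symbol, 932 had several and 9160 had none, and only those with 1 symbol were used. For each gene the brightest probe set by mean signal was kept.

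Group means were fitted to all 12 arrays with limma 3.58.1 in R 4.3.3 (eBayes, constant prior). Tests were two-sided, with Benjamini-Hochberg adjustment over 18193 genes within a contrast. A second fit ran over all 34945 probe sets. Isoform pairs were compared by exact permutation of the arrays. Only the limma fit at 42 days against chow was tried on simulated data, with independent noise and planted shifts. The fit over all probe sets and the permutation test were not. The members and gene lists were chosen with earlier results of these data known.

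Genes were named by rule: members past the test in any contrast, the highest and lowest member of each complex at 42 days, the isoform pairs, any member whose probe sets passed in opposite directions (none did), and assembly factors and complex I subunits past the test. Members named beyond that rule were chosen after their values were seen. Alternatives were 3 normalizations between arrays, a filter on the 40% dimmest genes, other choices of probe set, weights for arrays, a prior with a trend and robust fit, the replicate number as a block, marker means as covariates, the 8 arrays compared, an adjusted p under 0.1, and leaving out each array. Not every same-numbered pair of arrays correlated above 0.1, so replicate numbers were not taken as pairs: the 3 of 12 that did were all those of replicate 1 (r from 0.208 to 0.221). No 2 arrays shared more than 1.73% of their values. Promoter windows were matched by Entrez identifier.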

Additional observations from a re-analysis of the deposited data

Results flagged for a closer look

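Dixon's test was applied to 63 groups of 4 arrays, those of the 21 named subunits, and chance sets about 1 in 20 such groups apart. It set 4 arrays apart. For Cox6b2 at 42 days, replicate 1 had 6.608 while the other 3 lay between 6.752 and 6.775. For Uqcr10, replicate 4 at 42 days had 13.437 against 13.361 to 13.372, and replicate 3 at 5 days had 13.477 against 13.465 to 13.467. For Cox7a1 at 5 days, replicate 3 had 13.454 against 13.371 to 13.381. The change of Cox8c differed between the times, by 0.252 in log2 terms (42 days minus 5 days, limma adjusted p = 0.0304), and both changes are taken against the same chow arrays.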

How the results depend on the processing

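Dim probe sets (Cox6b2, Cox7c), adjusted p-values near the threshold and 4 arrays a group limit what can be said of single subunits. The counts of subunits past the test were 3 at 42 days against chow, 2 at 5 days and 1 between the times. At 42 days the count was 6 with the most variable probe set, 5 with a trended and robust prior, and 1 with either the adipocyte or the slow fibre covariate, while the genes called in all were 2536, 1277, 123 and 438 under these settings, against 1011. At 5 days it was 1 under quantile normalization, median centring, cyclic loess, the mean of probe sets and the trended prior. It was 0 with array weights, with either covariate and in a fit of 8 arrays. Over all genes the 5-day calls numbered 692, between 7 (8 arrays) and 1353 (centring) under these settings. Between the times it was 3 after median centring, 2 without the dimmest 40% of genes, with array weights, with the trended prior and in a fit of 8 arrays, and 4 at an adjusted p under 0.1. Scaling changed which subunits were called, and no called subunit changed sign: 1 (Uqcrfs1) rose and 0 fell at 5 days after median centring, 2 (Uqcrfs1 and Cox6b2) rose and 1 fell at 42 days after cyclic loess, 1 rose and 1 fell at 42 days after quantile normalization or centring, and 1 rose and 2 fell between the times after centring. Leaving out 1 array gave 1 to 3 at 42 days, 0 to 1 at 5 days and 0 to 2 between the times. At 42 days the count of 1 came without chow replicate 3 or 42-day replicate 1, 2 or 4; at 5 days every array left out lowered the count. Between the times it was 0 without 5-day replicate 2, 3 or 4 or 42-day replicate 1 or 4, and 2 without chow replicate 1. The median change of the subunits was 0.0944 at 5 days after centring, -0.0012 after cyclic loess, 0.0103 with the most variable probe set and 0.0047 with the slow fibre covariate. At 42 days it was -0.0046 with that covariate, and between the times -0.0714 after centring and 0.0497 after cyclic loess, against -0.0065. Leaving out 1 array gave medians of 0.0043 to 0.0398 at 42 days, 0.0159 to 0.051 at 5 days and -0.016 to 0.0044 between the times. Of the isoform pairs, 1 (Cox7a1 and Cox7a2) reached an unadjusted exact p under 0.05 between the times with the most variable probe set, against 0. With the replicate number as a block the counts stayed at 3, 2 and 1, and 4 of 12 arrays correlated best with an array of their own number. For single subunits, 1331 of 1506 refits kept direction and call, 66 lost the call, 13 gained it and 96 changed the sign of a value with no call. For isoform pairs 190 of 198 kept both.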
